A study of Rattus norvegicus with 6 samples.

Results

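HOX genes encode homeodomain transcription factors that lie in 4 clusters, HOXA to HOXD. They were measured here by RNA sequencing in primary rat BMSCs, the plastic-adherent mesenchymal stem cells grown out of femoral marrow, which can become osteoblasts, chondrocytes or adipocytes. The members were all rows of the count table whose symbol is Hoxa, Hoxb, Hoxc or Hoxd followed only by a number. That rule took 35 of 37209 rows, with 10 in HOXA, 10 in HOXB, 8 in HOXC and 7 in HOXD. Cells exposed for 6 h to 3% CSE, an extract of cigarette smoke (3 libraries), were set against control cells kept in serum-free medium for 6 h (3 libraries), and all cells were labelled wild type (WT). Before treatment, cells of both groups had been grown with fetal bovine serum to near confluence. The labels do not say whether each library is its own culture or animal, and the p-values reflect the spread among these 6 libraries, part or all of which may be technical. The labels used here also give no strain, age or sex.

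Within a cluster, HOX genes are numbered by paralog group. Low numbers lie at the end of the cluster that is active early and far forward in the embryo, and high numbers at the end that is active late and toward the tail and the tips of the limbs. Mesenchymal cells of the adult keep part of this pattern in culture, so the set of active HOX genes records where in the body a stromal cell came from. The proteins bind DNA together with TALE homeodomain cofactors of the PBX and MEIS families.

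The RefSeq table of the rat assembly GRCr8 lists 39 HOX genes, and 4 of them have no row under their symbol. Rows that carry the numeric RefSeq gene IDs of Hoxa4, Hoxc11, Hoxd8 and Hoxd11 are in the table, and their values are given beside the members without being counted among them. RefSeq places HOXA on chromosome 4, HOXB on chromosome 10, HOXC on chromosome 7 and HOXD on chromosome 3. The symbols Hoxa9, Hoxa10, Hoxa11 and Hoxc8 are also listed there as synonyms of another HOX gene, so the identity of those rows rests on the symbol in the count table. HOX clusters are dense and hold antisense transcripts, and no strand setting is given in the sources used here, so reads of overlapping transcripts cannot be told apart. In RefSeq the span of Hoxc6 overlaps those of Hoxc4 and Hoxc5, and the span of Hoxa3 overlaps those of Hoxa4, Hoxa5 and Hoxa6. The division of reads within each of these sets is uncertain, including which HOXA rows are at 0.

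Library totals were 19433637 to 22589327 counts with CSE and 15958621 to 18651194 in the control. Levels are normalized counts per 1000000 counts (CPM), scaled by the TMM method of edgeR, and the most that 0 reads in a library allows, 3 counts, is 0.142 to 0.177 CPM, for counting error only. These values are not divided by transcript length, so levels were not ranked between genes. A gene was called where the adjusted p of edgeR's quasi-likelihood test over 13390 genes was at or below 0.05. Of all tested genes 73.9% were called, 36.3% higher and 37.5% lower with CSE, and the median log2 fold change was −0.02. All 11 stromal cell markers were tested, of which 4 were higher, 5 lower and 2 did not pass. They included Col1a1, the type I collagen gene (26080 ± 666 CPM with CSE and 28770 ± 1887 CPM in the control, SD, n = 3), the chemokine gene Cxcl12 (83.9 ± 5.80 CPM with CSE and 378 ± 12.1 CPM in the control) and Vcam1 (1.87 ± 0.210 CPM with CSE and 0.323 ± 0.139 CPM in the control). The cultures also held macrophage transcripts: 9 of 10 macrophage markers were detected at levels that passed the filter on low counts, Cd163 was at 0 in all 6 libraries, 3 of the 9 were higher, 4 lower and 2 did not pass, and the summed CPM of the list was 1735 to 1797 with CSE and 1580 to 1623 in the control. Lyz2 made up most of that sum, and without it, a choice made after seeing the data, the sum was 338 to 361 CPM with CSE and 425 to 431 CPM in the control. Cx3cr1 (−4.82 ± 0.13) and Cd14 (−1.45 ± 0.08) were the macrophage markers that fell by more than 2-fold. Of 8 endothelial markers 3 passed the filter and Emcn was at 0, with sums of 7.57 to 9.35 CPM with CSE and 15.8 to 18.5 CPM in the control. Of 11 blood cell markers 3 passed and 5 were at 0, with sums of 51.4 to 54.9 CPM with CSE and 76.1 to 81.1 CPM in the control. Ptprc made up most of those sums (49.3 ± 0.817 CPM with CSE and 61.8 ± 2.30 CPM in the control). Whether its reads came from the macrophages or from other blood cells was not tested. The part of these cells in the HOX values was not tested, and in bulk RNA fewer cells of a type and less RNA per cell cannot be told apart.

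In these counts, control cells expressed HOXC, a smaller part of HOXD, and almost nothing of HOXA and HOXB. Whether the low rows reflect the cells or the way reads were counted was not tested. With expression set at 1 CPM or more in every control library, 8 of 35 members qualified: Hoxc4, Hoxc5, Hoxc6, Hoxc8, Hoxc9 and Hoxc10, and Hoxd4 and Hoxd9. The positions covered were therefore groups 4, 5, 6, 8, 9 and 10 in HOXC and groups 4 and 9 in HOXD. No member of groups 1, 2 or 3 and none of groups 12 or 13 reached the minimum in any cluster. Of the rows matched by gene ID, Hoxc11 and Hoxd8 also qualified, which adds group 11 in HOXC and group 8 in HOXD. Hoxa4 was at 0 in all 6 libraries, and Hoxd11 had 0 reads with CSE and 3 reads in the control. At a minimum of 5 CPM, 4 members qualified, all in HOXC: Hoxc4, Hoxc6, Hoxc8 and Hoxc10. The row matched to Hoxd8, which is not counted among the members, also stayed above 5 CPM in the control (13.7, 17.1 and 13.1 CPM).

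**Figure D1:**
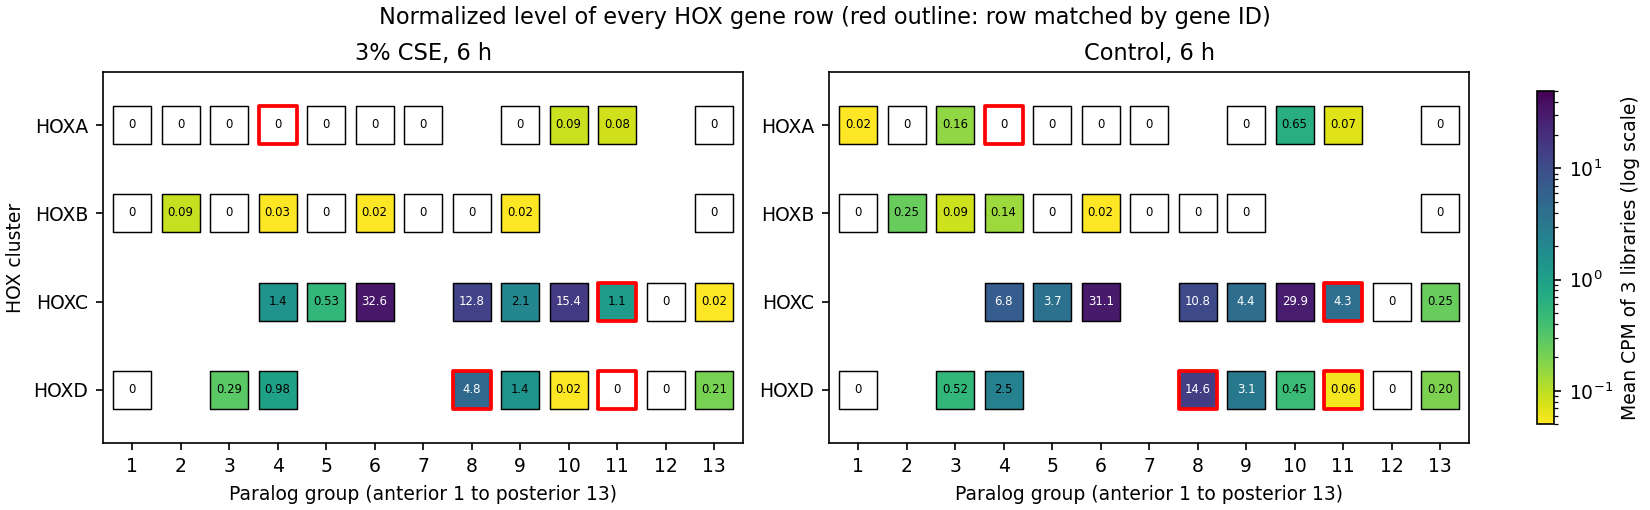
Mean normalized CPM of each HOX gene row (colour, log scale, n = 3 libraries) by cluster and paralog group, with CSE on the left and control on the right, white squares at 0 and red outlines for rows matched by gene ID. In both groups the dark squares lie in HOXC and HOXD, and HOXA and HOXB stay below 1 CPM.

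HOXA was nearly silent in these counts. Of its 10 members, 6 were at 0 in all 6 libraries: Hoxa2, Hoxa5, Hoxa6, Hoxa7, Hoxa9 and Hoxa13. The 10 members together had 5, 4 and 1 reads in the CSE libraries and 10, 17 and 24 reads in the control libraries. Hoxa10, a gene of limb and reproductive tract patterning, gave most of these, with 1, 3 and 1 reads with CSE and 7, 14 and 16 reads in the control. Of 3 protein-coding genes next to HOXA, Evx1, a homeobox gene beside Hoxa13, was at 0 in all 6 libraries, Skap2 was at 46.6 ± 2.47 CPM with CSE and 50.3 ± 0.757 CPM in the control, and Hibadh was at 47.0 ± 2.75 CPM with CSE and 53.3 ± 1.09 CPM in the control (SD, n = 3). Of the named protein-coding genes that RefSeq assigns to chromosome 4, 78.6% had a count in some library, less than on chromosomes 3 (87.8%), 7 (88.3%) and 10 (88.6%), which carry the other HOX clusters. On chromosome X it was 1.92%. Why so few genes there had counts was not tested, and a row at 0 in these counts need not be a silent gene.

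HOXB likewise had 5 of 10 members at 0 in all libraries: Hoxb1, Hoxb5, Hoxb7, Hoxb8 and Hoxb13. Its members summed to 2, 6 and 1 reads with CSE and 6, 9 and 13 reads in the control. Hoxb2, a gene of hindbrain patterning, had 0, 5 and 0 reads with CSE and 3, 7 and 4 reads in the control, which overlap. Hoxb4, known for its action in blood stem cells, had 1, 0 and 1 reads with CSE and 3, 0 and 5 reads in the control. Hoxb6 had 1 read in each group and Hoxb9 had 1 read with CSE and 0 in the control.

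Summed over the 35 members, HOX reads were 4009 with CSE and 5292 in the control. HOXC held 95.3% of the member reads with CSE and 91.5% in the control, and HOXD held 4.27% and 7.01%. These shares leave out the rows matched by gene ID, of which Hoxd8 alone had 284 reads with CSE and 817 in the control, more in either group than the 171 and 371 reads of all HOXD members. The summed level of the members was 68.6, 69.9 and 66.0 CPM in the CSE libraries and 98.0, 93.8 and 93.1 CPM in the control libraries. Every CSE library thus lay below every control library. HOXC summed to 65.0 ± 1.48 CPM with CSE and 86.9 ± 2.53 CPM in the control, and HOXD to 2.90 ± 0.420 and 6.68 ± 0.696 CPM (SD, n = 3).

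After 6 h of CSE, 6 of the expressed HOX genes were lower and 2 did not pass the test. The 8 members that passed the filter on low counts were the same 8 that control cells express. Hoxc4, Hoxc5, Hoxc9, Hoxc10, Hoxd4 and Hoxd9 were called lower, beside 37.5% of all tested genes, and in these 6 every CSE library lay below every control library, beside 38.6% of all tested genes. No member lay wholly above its control libraries, as 37.2% of tested genes did, and 6 of 8 members were apart in some direction, beside 75.8% of tested genes. No member was called higher by edgeR, although Hoxc8 was higher at an unadjusted p under 0.05. With limma-voom Hoxc8 alone was likewise higher at an unadjusted p under 0.05, and DESeq2 had 0 such members. In 5 members the fall was at least 2-fold, beside 14.4% of all tested genes. The median log2 fold change over the 8 was −1.09, beside −0.02 over all tested genes. Hoxc5 reached the filter's minimum in 1 of 3 CSE libraries and in all control libraries, so it entered the test through the group in which it was high.

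**Figure D2:**
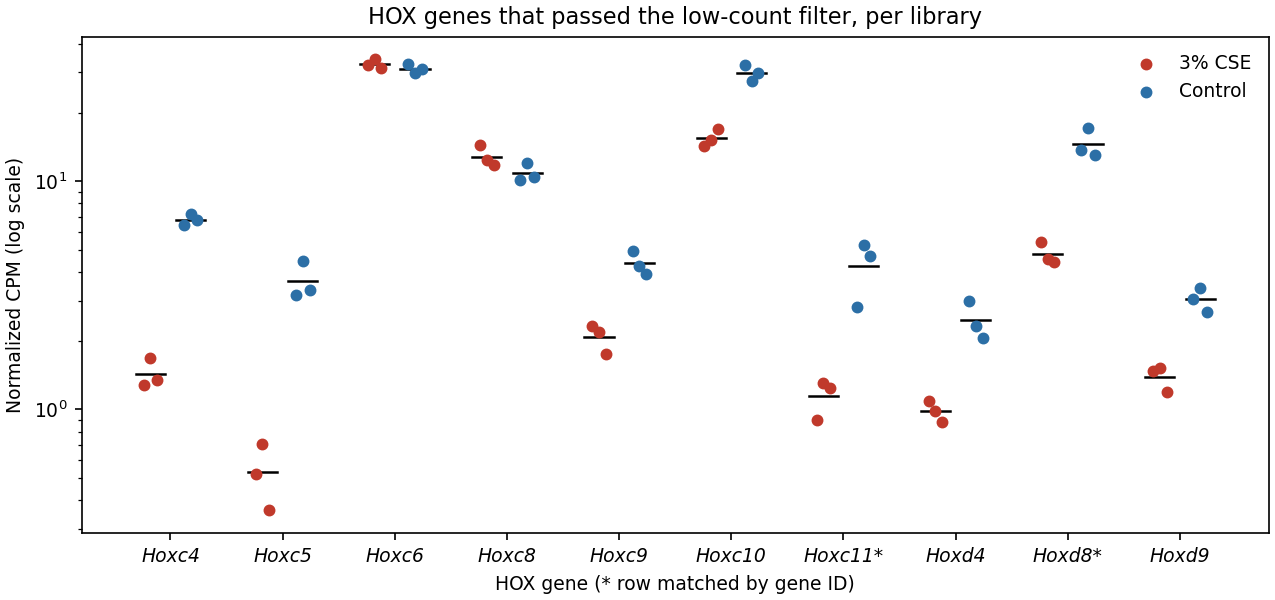
Normalized CPM (log scale) of the 10 HOX rows that passed the low-count filter, with 1 point per library, CSE left of control, and the group mean as a bar. The groups are apart in every gene but Hoxc6 and Hoxc8, whose points overlap.

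Among the 8 tested members, Hoxc5 and Hoxc4 at the anterior end of HOXC had the lowest fold changes, while some members under the filter had lower ones on few reads. Hoxc5, which like the other members of its paralog group acts in the patterning of neck and trunk, had 0.521, 0.708 and 0.362 CPM with CSE and 3.18, 4.48 and 3.33 CPM in the control. The groups lay far apart, and its level was 6.87-fold lower with CSE (log2 fold change −2.78 ± 0.30 SE, edgeR adjusted p = 1.78e-07). Hoxc4 had 1.28, 1.69 and 1.34 CPM with CSE and 6.41, 7.16 and 6.76 CPM in the control. The highest CSE library was again well under the lowest control library, a 4.72-fold lower level (−2.24 ± 0.19, edgeR adjusted p = 6.94e-09).

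The neighbouring Hoxc6 and Hoxc8 did not follow. Hoxc6, a gene of thoracic and forelimb-level patterning in the mouse embryo, had 32.2, 34.3 and 31.3 CPM with CSE and 32.5, 29.8 and 31.0 CPM in the control. The groups overlap, with a log2 fold change of 0.07 ± 0.07 that missed the threshold (edgeR adjusted p = 0.361). With upper-quartile scaling it was −0.067 and with unscaled totals −0.12, and the adjusted p ranged between 0.128 and 0.743 over the alternatives. Hoxc8, which in the mouse acts in the thoracic skeleton and in brachial motor neurons, had 14.4, 12.4 and 11.8 CPM with CSE and 10.1, 12.0 and 10.4 CPM in the control. Only the lowest CSE library fell within the control range, and the log2 fold change was 0.24 ± 0.11, short of the threshold (edgeR adjusted p = 0.0599). It passed as higher under RLE scaling (0.26, edgeR adjusted p = 0.0423), without the third CSE library (0.31, edgeR adjusted p = 0.0328) and without the second control library (0.31, edgeR adjusted p = 0.0366), within adjusted p of 0.0328 to 0.678 over all alternatives.

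Toward the posterior end of HOXC the members were lower again. Hoxc9, which represses the forelimb motor neuron program in the mouse thoracic spinal cord, had 2.32, 2.18 and 1.76 CPM with CSE and 4.94, 4.27 and 3.93 CPM in the control, 2.09-fold lower (−1.06 ± 0.20, edgeR adjusted p = 1.39e-04). Hoxc10, a gene of lumbar and hindlimb level, had 14.3, 15.2 and 16.9 CPM with CSE and 32.4, 27.4 and 29.7 CPM in the control. It was 1.93-fold lower (−0.95 ± 0.09, edgeR adjusted p = 2.55e-08), and no CSE library came near the control range. The row matched to Hoxc11, a gene of the hindlimb and sacral region, had 0.901, 1.31 and 1.24 CPM with CSE and 2.82, 5.27 and 4.69 CPM in the control. It was 3.73-fold lower (−1.90 ± 0.27, edgeR adjusted p = 5.58e-06), with no overlap between the groups. Hoxc12 was at 0 in all 6 libraries, and Hoxc13, known for its role in hair and nail, had 0, 1 and 0 reads with CSE and 3, 7 and 4 reads in the control.

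**Figure D3:**
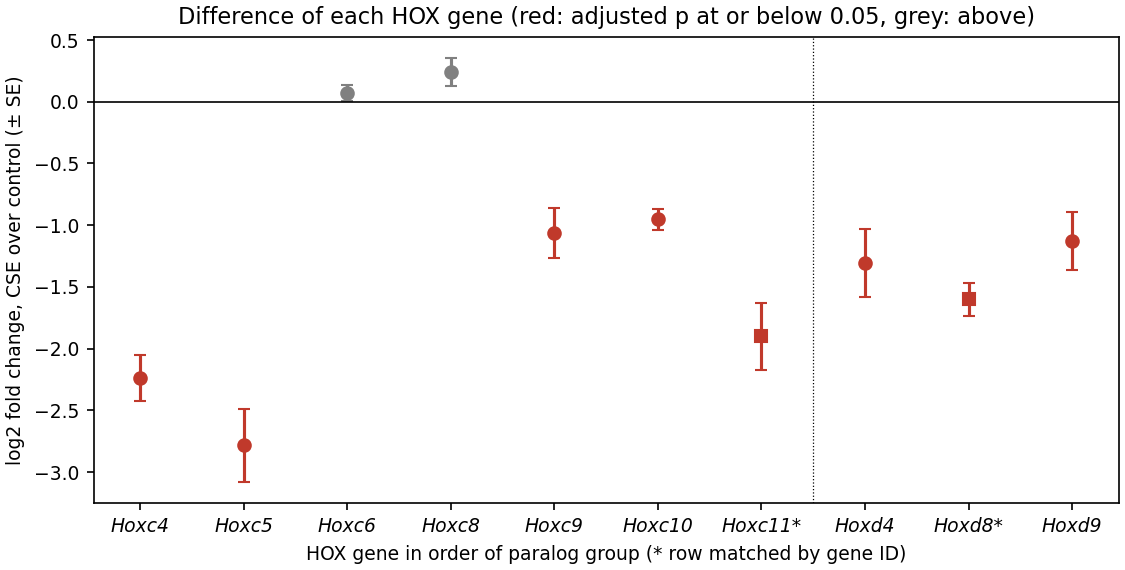
The log2 fold change of CSE over control with its SE for the 10 HOX rows that passed the filter, in order of paralog group within HOXC and then HOXD, red where the edgeR adjusted p was at or below 0.05. Hoxc6 and Hoxc8 lie near 0 between lower genes on either side.

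The make-up of the HOXC reads therefore differed between the groups, in a way that no scaling between libraries can alter. Hoxc6 held 49.6, 51.6 and 49.4% of the HOXC member reads in the CSE libraries and 36.2, 34.8 and 36.3% in the control libraries. Hoxc10 held 23.8 ± 2.48% with CSE and 34.4 ± 2.05% in the control (mean ± SD of 3 libraries). Both shares were apart between the groups, in opposite directions. For every 100 reads of Hoxc6 there were 3.97, 4.93 and 4.28 reads of Hoxc4 with CSE and 19.7, 24.1 and 21.8 in the control. Hoxc5 reads per 100 of Hoxc6 numbered 1.62, 2.07 and 1.15 with CSE and 9.77, 15.0 and 10.8 in the control. For Hoxc8 the ratio was 44.6, 36.1 and 37.6 with CSE and 31.1, 40.4 and 33.7 in the control, which overlap. No test was made of these ratios. The spans of Hoxc4 and Hoxc5 overlap that of Hoxc6, so the division of reads behind their ratios is uncertain. The shares leave out the row matched to Hoxc11, which had 67 reads with CSE and 241 in the control.

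**Figure D4:**
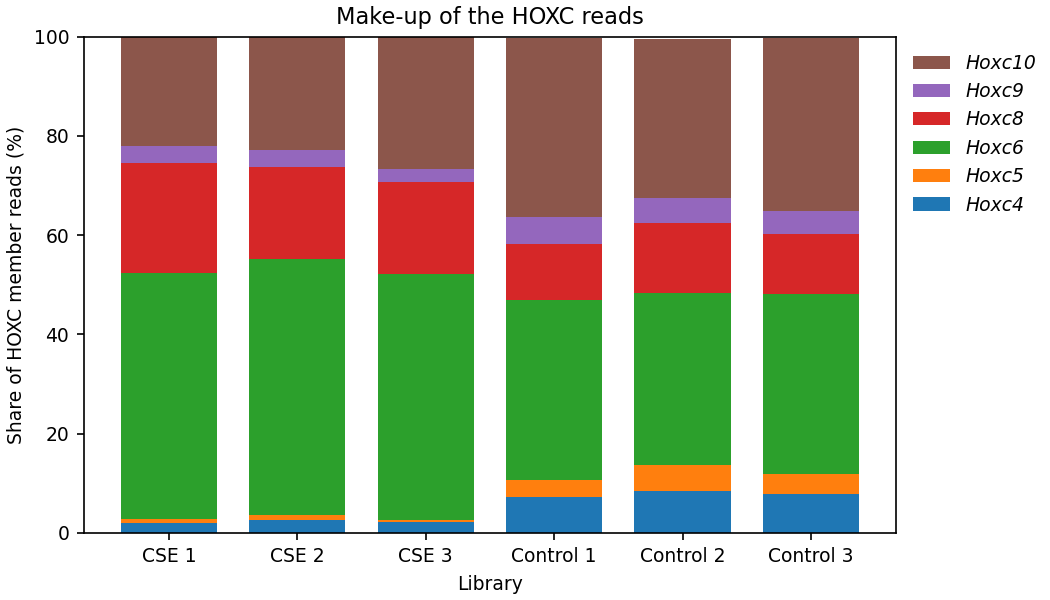
Share of the HOXC member reads (%) taken by each of the 6 tested HOXC members in each library, CSE libraries left of control libraries. Hoxc6 and Hoxc8 take a larger part with CSE, and Hoxc4, Hoxc5, Hoxc9 and Hoxc10 a smaller part, in every library.

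HOXD moved in 1 direction where it could be tested. Hoxd4, a gene of hindbrain and cervical level, had 1.09, 0.981 and 0.878 CPM with CSE and 3.00, 2.32 and 2.07 CPM in the control, 2.48-fold lower (−1.31 ± 0.28, edgeR adjusted p = 3.67e-04). Hoxd9, which acts in the proximal limb and lumbar spine, had 1.47, 1.53 and 1.19 CPM with CSE and 3.06, 3.42 and 2.67 CPM in the control, 2.18-fold lower (−1.13 ± 0.24, edgeR adjusted p = 3.43e-04). The groups were apart in both genes. The row matched to Hoxd8 had 5.40, 4.58 and 4.44 CPM with CSE and 13.7, 17.1 and 13.1 CPM in the control, a 3.03-fold lower level (−1.60 ± 0.14, edgeR adjusted p = 8.66e-09). Beyond these, Hoxd3 had 3, 6 and 8 reads with CSE and 9, 14 and 6 reads in the control, and Hoxd10 had 1, 0 and 0 reads with CSE and 8, 4 and 13 reads in the control. Hoxd13, the gene of digit formation, had 13 reads with CSE, of which 12 were in 1 library, and 11 reads spread over the control libraries. Hoxd1 and Hoxd12 were at 0 in all 6 libraries.

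Paralogs of HOXC and HOXD can be set side by side. In group 4, Hoxc4 was at −2.24 and Hoxd4 at −1.31, and in group 9, Hoxc9 was at −1.06 and Hoxd9 at −1.13 on the log2 scale. Group 8 was divided, with Hoxc8 at 0.24 and the row matched to Hoxd8 at −1.60. Groups 5, 6 and 10 had 1 tested member each.

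Promoter windows are shown for HOX genes that were lower, as the sequence next to which each change was measured. RefSeq (GRCr8) has an entry of 300 bases, from 250 before to 50 after the annotated start, for 4 of the 10 HOX rows tested, all of which were lower with CSE. Capitals mark the homeodomain core TAAT, read on both strands.
Hoxc4, chr7:136048809-136049108, plus strand: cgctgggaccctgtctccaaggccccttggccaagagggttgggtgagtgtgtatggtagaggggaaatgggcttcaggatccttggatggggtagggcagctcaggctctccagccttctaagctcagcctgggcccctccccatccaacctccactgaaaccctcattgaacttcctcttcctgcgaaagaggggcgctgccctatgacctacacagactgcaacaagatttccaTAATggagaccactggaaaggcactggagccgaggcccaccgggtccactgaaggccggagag
Hoxd4, chr3:80021636-80021935, plus strand: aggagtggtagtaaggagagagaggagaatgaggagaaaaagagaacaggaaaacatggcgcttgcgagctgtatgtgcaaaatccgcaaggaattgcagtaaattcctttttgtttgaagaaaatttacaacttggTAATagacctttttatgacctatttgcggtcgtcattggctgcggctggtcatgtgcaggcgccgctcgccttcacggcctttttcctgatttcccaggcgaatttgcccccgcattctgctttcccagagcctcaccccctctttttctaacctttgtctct
Hoxd8, chr3:80014973-80015272, plus strand: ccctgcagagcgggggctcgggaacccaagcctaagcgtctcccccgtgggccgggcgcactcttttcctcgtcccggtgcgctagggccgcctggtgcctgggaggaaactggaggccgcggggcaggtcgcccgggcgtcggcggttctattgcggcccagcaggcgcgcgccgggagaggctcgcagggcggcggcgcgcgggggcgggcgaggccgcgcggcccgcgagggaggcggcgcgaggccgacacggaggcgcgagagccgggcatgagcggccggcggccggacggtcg
Hoxd9, chr3:80007756-80008055, plus strand: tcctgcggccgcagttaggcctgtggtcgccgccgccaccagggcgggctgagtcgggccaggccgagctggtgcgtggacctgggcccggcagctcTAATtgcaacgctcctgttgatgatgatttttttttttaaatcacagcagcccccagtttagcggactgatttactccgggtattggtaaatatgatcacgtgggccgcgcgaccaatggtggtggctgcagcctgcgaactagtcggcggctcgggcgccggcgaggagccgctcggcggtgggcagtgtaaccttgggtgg
The core was found once each in the windows of Hoxc4, Hoxd4 and Hoxd9 and not in that of Hoxd8. Of all 27457 promoter windows of this length 59.7% hold it, and of 20 HOX windows 13 (65%) do. The motif AGGTCA, bound by retinoic acid receptors when paired, was in 2 of the 4 windows, those of Hoxc4 and Hoxd4, and in 15.7% of all windows and 3 of the 20 HOX windows. The PBX-HOX motif TGATNNAT was in none of the 4, in 4 of the 20 HOX windows and in 8.82% of all windows. CCAAT was in those of Hoxd4 and Hoxd9, in 12 of the 20 HOX windows and in 37.7% of all windows, while TATAAA was in none of the 4, in 3 of the 20 and in 14.3% of all windows. All motifs were sought on both strands, and a base may belong to more than 1 motif. The GC content was 79% in the window of Hoxd8, 62.7% in that of Hoxd9, 59% in that of Hoxc4 and 47.3% in that of Hoxd4, with medians of 62.5% over HOX windows and 52.3% over all windows.

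The members under the filter had few reads, and most of those with reads had fewer with CSE. Of 27 members that were not tested, 14 were at 0 throughout, 9 had fewer reads with CSE, 3 had more and 1 had equal reads. Without the filter, the edgeR adjusted p was at or below 0.05 for 4 of them, all lower: Hoxa10 (0.000204), Hoxd10 (0.000292), Hoxc13 (0.0164) and Hoxa3 (0.02). Reads of these 4 lay mostly in the control, so they passed through the group in which they were high. The edgeR adjusted p also ran far smaller without the filter: for Hoxc4 it was 2.23e-27, against 6.94e-09 with it. The 4 values are therefore not firm. In that fit 10684 of 21252 genes were called, 50.2% of them higher. Hoxa3, a gene of pharyngeal organs, had 0 reads with CSE and 9 in the control. Against a floor of 3 counts over the CSE group, its level was 3.16-fold lower. That value allows no counting error in the 9 control reads, so it is not a firm bound. Hoxb3 had 0 reads with CSE and 0, 2 and 3 in the control, which overlap, and did not pass (edgeR adjusted p = 0.102). MicroRNA rows inside the clusters were empty or close to it: Mir10a, Mir10b, Mir196b and Mir196c were at 0 throughout, Mir196a had 4 reads with CSE and 0 in the control, and Mir615, which lies within HOXC, had 0 reads with CSE and 7 in the control. Whether these libraries hold RNAs as short as mature microRNAs was not tested, so the rows give no level of them. Reads of Mir615 cannot be told apart from those of overlapping HOXC transcripts.

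Cofactors of HOX proteins were mostly lower as well. Of 10 tested TALE homeobox genes 8 were lower and 2 higher, beside 37.5% lower and 36.3% higher among all tested genes, and their median was −0.72. Meis1, which binds DNA with posterior HOX proteins, had 34.0, 34.3 and 29.5 CPM with CSE and 111.7, 111.8 and 111.6 CPM in the control (−1.78 ± 0.06, edgeR adjusted p = 5.54e-14). Pknox1 (0.82 ± 0.06) and the repressor gene Tgif1 (0.87 ± 0.06) were higher, each with an edgeR adjusted p of 1.66e-09 or less.

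Regulators of HOX chromatin included higher and lower genes, as did all tested genes, of which 73.9% were called, 36.3% higher and 37.5% lower. Of 25 Polycomb genes tested, which encode repressors that keep HOX genes silent outside their domains, 11 were higher, 11 lower and 3 did not pass. Those more than 2-fold lower were Cbx7 (log2 fold change −3.78), Cbx8 (−2.03), Cbx2 (−1.99), Cbx6 (−1.65) and Phf19 (−1.06). Phf1 (1.31) was more than 2-fold higher. Among 14 genes of the MLL complexes and the elongation factors that keep HOX genes active, 7 were higher, 4 lower and 3 did not pass. Dot1l, a methyltransferase gene of this list but not the only one, averaged 232 ± 20.2 CPM with CSE and 45.1 ± 2.25 CPM in the control (SD, n = 3; 2.36 ± 0.07 log2, edgeR adjusted p = 2.56e-15). Retinoic acid activates HOX genes in the embryo, and of 9 tested genes of its pathway 1 was higher, 4 lower and 4 did not pass, beside the same 36.3% and 37.5%. Cyp26b1, which degrades retinoic acid, averaged 2.20 ± 0.331 CPM with CSE and 19.8 ± 0.728 CPM in the control (−3.16 ± 0.13, edgeR adjusted p = 5.11e-13), and the receptor gene Rara was at −1.27 ± 0.07 (edgeR adjusted p = 1.23e-11).

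Some limb position genes outside the HOX clusters were expressed too, while Tbx4 and Tbx5 stayed below 1 CPM in every control library. Pitx1, the hindlimb determinant, had 11.5, 10.0 and 12.1 CPM with CSE and 15.7, 17.8 and 19.0 CPM in the control (−0.64 ± 0.10, edgeR adjusted p = 2.78e-05). Tbx4, of the hindlimb, had 0.661 ± 0.416 CPM with CSE and 0.521 ± 0.0633 CPM in the control (SD, n = 3) and did not pass (edgeR adjusted p = 0.496). Tbx5, of the forelimb, had 11 reads with CSE (0.186 ± 0.0747 CPM) and 28 in the control (0.503 ± 0.168 CPM) and was not tested. Of 17 tested limb regulators 3 were higher, 8 lower and 6 missed the threshold, beside 36.3% higher and 37.5% lower among all tested genes, and the median was −0.26. Of 15 tested genes on a list of genes around the HOX clusters 7 were higher, 5 lower and 3 did not pass, beside those same shares. Snx10, Jazf1, Snx11, Atf2, Hnrnpa3, Nfe2l2 and Agps on that list do not lie within 300 kb of a cluster in RefSeq. Of the tested listed genes that do, Hnrnpa1 and Lnpk were higher, Hibadh, Smug1, Cbx5, Gpr84 and Mtx2 were lower, and Skap2 did not pass. On either side of HOXD, named here for their position, Lnpk was slightly higher (0.24 ± 0.06, edgeR adjusted p = 0.00241) and Mtx2 slightly lower (−0.31 ± 0.07, edgeR adjusted p = 7.65e-04).

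**Figure D5:**
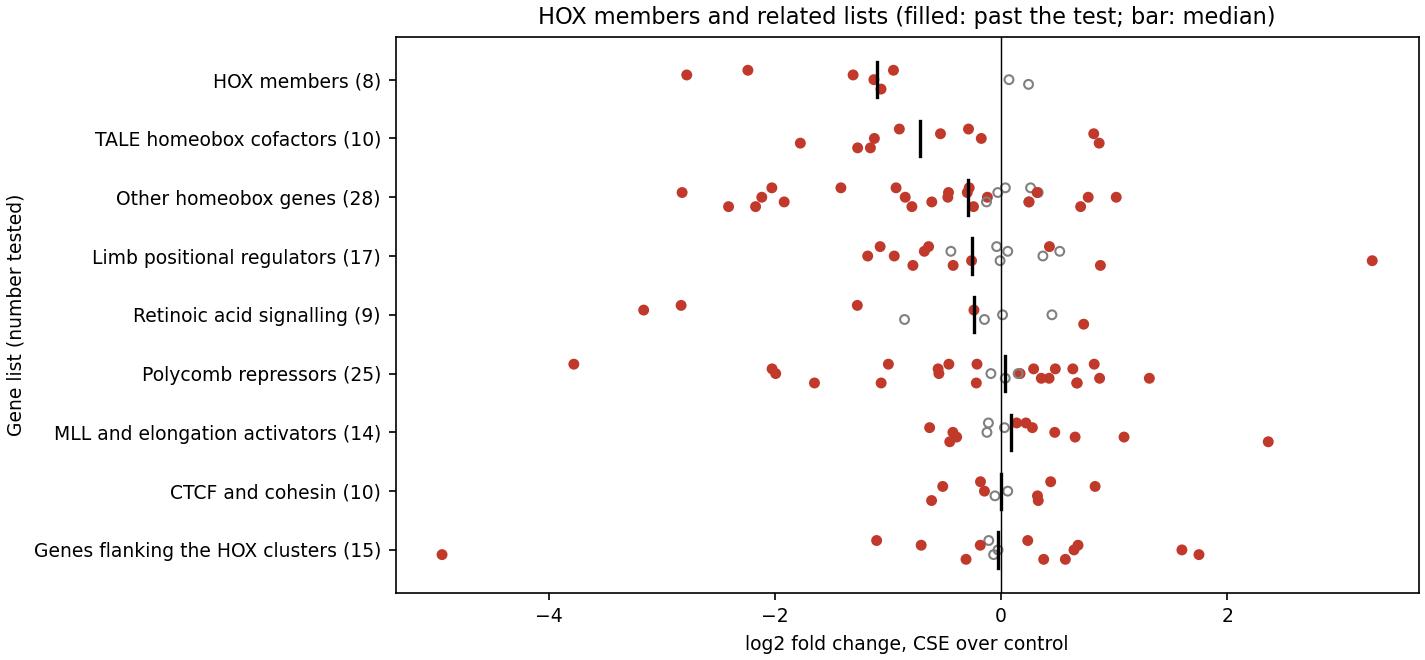
The log2 fold change of CSE over control for the tested HOX members and for 8 related gene lists, with 1 point per gene, filled where the edgeR adjusted p was at or below 0.05, and the list median as a bar. The HOX median of −1.09 is beside −0.72 for the TALE genes, and the other lists have medians between −0.29 and 0.08.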

How the data were processed

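RNA of 6 libraries was sequenced, 3 of CSE-treated and 3 of control BMSCs. The deposited table holds raw read counts per gene symbol, whole numbers with no normalization. HISAT2 2.0.4 and the build Rnor_6.0 are named in the submitters' processing notes, with no role given. For the counting tool, strand setting and gene annotation nothing is stated in the sources used here. Columns were assigned by library names that match the sample titles, and all 6 per-sample columns were used.

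Counts were filtered with filterByExpr of edgeR 4.0.16 (R 4.3.3), scaled by TMM and fitted with glmQLFit and glmQLFTest, group only, 2-sided, with Benjamini-Hochberg adjustment over 13390 genes. The SE is the log2 fold change divided by the square root of F. Alternatives used DESeq2 1.42.0, limma 3.58.1 (voom), other scalings and filters, a replicate block and leaving out each library. Fitting was tested on simulated data. Within groups the chi-square per degree of freedom between libraries was 3.24 to 5.74, so no library repeated another. RefSeq sequences and gene IDs are of GRCr8, and no coordinates of Rnor_6.0 were used.

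The members and all gene lists were chosen with earlier results of these data known. Every member past the filter is named. Of each other list, at most 4 genes with the smallest adjusted p, the limb genes Pitx1, Tbx4 and Tbx5, are named. Flanking genes named by position, cell type markers, cluster microRNAs and genes named as being at 0 fall outside that rule and were chosen after their values were seen. The same holds for the Polycomb genes named for a change of more than 2-fold.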

Additional observations from a re-analysis of the deposited data

How the results depend on the processing

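The 6 HOX members called lower were called lower under all 14 alternatives run, among them limma-voom and DESeq2. Without the filter 10 members were lower, while 10684 of 21252 genes were called, 50.2% of them higher. The added members were Hoxa10, Hoxa3, Hoxc13 and Hoxd10, which had few reads, most of them in the control. Leaving out each library in turn gave 6 to 7, the added gene being Hoxa10. With all 6 libraries, Hoxa10 reached the filter's minimum in 2 control libraries and 0 CSE libraries. It thus entered those fits through the group in which it was high. Members called higher numbered 1 (Hoxc8) under RLE scaling and 0 to 1 on leaving out each library. Hoxc6 reversed to −0.067 with upper-quartile scaling and −0.12 with unscaled totals. Those scalings put the median of all genes at −0.15 and −0.20, and 40.3% and 37.2% of the called genes were then higher, against 49.2% with TMM. The summed CPM difference of CSE minus control was −26.8 for HOX, −34.5 with upper-quartile scaling and −37.5 with unscaled totals. For HOXC it was −21.9, −29.1 and −31.9, and for HOXD −3.78, or −4.42 with unscaled totals. At a minimum of 5 CPM, 4 in place of 8 members counted as expressed. With the replicate block 6 members were lower and 9756 genes were called, against 9894 without it. Over all tested genes, same-numbered libraries did not deviate together (correlations of 0.00462, −0.0252 and −0.0169). Counting noise of genes with low counts enters these correlations, so they cannot exclude a pairing. The labels do not say what the replicate numbers mark. With the rows matched by gene ID, a choice made after seeing the data, 8 HOX genes were lower and 10 were expressed. Of the 27 members under the filter, 14 had no read in any library, and whether deeper libraries would show differences in the others was not tested.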

Other observations

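A chosen list of homeobox genes outside the HOX clusters also had more lower than higher genes. Homeobox genes of the other lists, such as Pitx1 and Pknox1, are not counted in it. Of 28 tested, 17 were lower, 5 higher and 6 did not pass, beside 37.5% lower and 36.3% higher among all tested genes, with a median log2 fold change of −0.29. Zfhx4 averaged 9.33 ± 0.656 CPM with CSE and 65.9 ± 4.49 CPM in the control (SD, n = 3; −2.82 ± 0.08 SE, edgeR adjusted p = 3.49e-15), and the osteoblast gene Dlx5 averaged 4.73 ± 0.767 CPM with CSE and 21.4 ± 0.183 CPM in the control (−2.17 ± 0.12, edgeR adjusted p = 1.7e-11). Gdf11, a signal that starts posterior HOX expression in the embryo, averaged 7.84 ± 0.679 CPM with CSE and 18.6 ± 0.892 CPM in the control (−1.25 ± 0.10, edgeR adjusted p = 5.78e-09). Regulators of head and axial mesenchyme were mostly scarce: of 13 listed, 3 passed the filter and 3 were at 0 in all libraries, among them Otx2. Of those that passed, Foxc2 was higher, at 15.3 ± 0.751 CPM with CSE and 10.1 ± 0.534 CPM in the control (0.60 ± 0.10, edgeR adjusted p = 3.01e-05). Six2 and Pax9 were lower, from 4.07 ± 0.114 and 4.73 ± 0.933 CPM in the control.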
